A study of Mus musculus with 12 samples.

Results

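The genes described here encode the nuclear subunits of respiratory complexes II to V, measured by RNA-Seq in mouse quadriceps. A gene was a member when the deposited tables mark it as coding and its name is Sdha, Sdhb, Sdhc, Sdhd, Cyc1 or Cycs, or starts with Uqcr, Cox4, Cox5, Cox6, Cox7, Cox8 or Atp5. Of 15344 genes in both tables, 13811 were coding and 47 met the rule: 4 of complex II, 9 of complex III, 1 for cytochrome c, 16 of complex IV and 15 of complex V. The other 2, Atp5s and Atp5sl, carry the name but are no subunits of the enzyme.

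The respiratory chain sits in the inner mitochondrial membrane. Complex II takes electrons from succinate, complex III passes them to cytochrome c, complex IV hands them to oxygen, and complex V uses the proton gradient so made to form ATP. Most of the subunits are encoded in the nucleus and imported, whereas a few central subunits of complexes III, IV and V are encoded in mitochondrial DNA. In heart and skeletal muscle, several small subunits of complex IV exist as a muscle isoform that replaces a ubiquitous isoform, and oxidative fibres hold more of all these complexes than fast glycolytic fibres.

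The study addressed Pompe disease, in which the lysosomal enzyme that breaks down glycogen, acid α-glucosidase (GAA), is missing. Libraries labelled WT came from untreated C57BL/6 mice. Libraries labelled KO came from GAA knock-out males on the C57BL/6 background that received PBS, and libraries labelled AAV from such males given AAV2/8-LSPhGAApA, a vector that expresses human GAA from a liver-specific promoter, by tail vein at 2e12 vg/kg and 2 months of age. All mice were 6 months old at harvest. Each group had 4 libraries, and the comparisons ask how the knock-out differs from the wild type and what the liver-directed vector changes in the muscle of knock-out mice.

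The mouse Gaa gene was counted at 343, 14640, 324 and 460 in the libraries labelled WT, at 12151, 13075, 11936 and 12895 in those labelled KO, and at 947, 587, 500 and 9854 in those labelled AAV. The gene that the labels call knocked out was thus high in every library labelled KO. Outside that group it was high only in WT replicate 2 and AAV replicate 4, and it was low in the other libraries labelled WT. Every direction given here is therefore between libraries labelled WT, KO and AAV. The counts of called members, over all members and by complex, are also given without WT replicate 2 or AAV replicate 4. Leaving these libraries out cannot show whether the labels are right. The libraries then left in WT all have low Gaa, and those labelled KO all have high Gaa. Library totals lay between 22122233 and 47379737 reads, a ratio of 2.14, and the skeletal muscle genes Ckm, Acta1, Myh4, Tnnt3, Des and Mb summed to between 3270288 and 5575019 normalised counts in every library. In KO replicate 3 the brown fat gene Ucp1 was counted at 194, against at most 2.36 elsewhere; Cox8b, which brown fat also expresses, was at 10703 there and between 9306 and 10442 in the other libraries labelled KO. The adipocyte genes Adipoq, Plin1, Cfd, Lep and Retn were highest in KO replicate 3 too, with a sum of 6684 there, against at most 2070 in WT and 1364 in AAV. Without KO replicate 3, 26 members were lower and 0 higher in KO than in WT, beside 10.7% and 7.01% of all genes, and 14 were higher in AAV than in KO, beside 9.06%. In bulk muscle, fewer cells of a type and less RNA per cell cannot be told apart.

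The libraries labelled KO held less mRNA for most of these subunits than those labelled WT, and the libraries labelled AAV lay between. All 47 members passed the filter on low values. Of them, 28 were lower and 1 was higher in the libraries labelled KO than in those labelled WT at an adjusted p under 0.05 (limma on log2(normalised count + 1), Benjamini-Hochberg over 14859 genes), beside 15.3% of all genes tested that were lower and 12.3% that were higher. The median log2 fold change was -0.58 over the members and 0.02 over all genes, and 41 members had a negative sign. With a correction for exon length, given below, 18 members were lower, beside 14.7% of all genes, with a median of -0.36. Of the 28, 10 also had a fold of at least 2, where 8.50% of all genes were called lower with such a fold. In 30 members every library labelled KO lay under every library labelled WT, and in 2 every one lay above; among all genes these shares were 15.1% and 13.3%. Without WT replicate 2, 27 of the same members were lower and 0 were higher, beside 10.2% and 7.55% of all genes. By complex, 1 of complex II, 7 of III, 11 of IV and 8 of V were then lower.

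Libraries labelled AAV had more mRNA than libraries labelled KO for 19 members and less for 1, beside 12.8% of 14894 genes that were higher and 13.4% that were lower. The median log2 fold change was 0.31, against 0.04 over all genes, and 39 members had a positive sign. With the correction for exon length, 12 members were higher, beside 12.6% of all genes, with a median of 0.18. Of the 19, Cox5b and Cox6a1 also had a fold of at least 2, where 5.43% of all genes were called higher with such a fold. In 20 members every library labelled AAV lay above every library labelled KO, a pattern seen in 14.8% of all genes. Without AAV replicate 4, 19 members were higher, 18 of them the same genes, and 0 were lower, beside 10.5% and 11.1% of all genes. By complex, 2 of complex II, 4 of III, 8 of IV and 5 of V were then higher. Without KO replicate 1 the count of higher members was 11, beside 6.63% of all genes, and without KO replicate 4 it was 12, beside 6.66%. Both comparisons use the same 4 libraries labelled KO.

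Against the libraries labelled WT, those labelled AAV were lower in 1 member, Cox5b, and higher in 0, beside 0.341% and 0.951% of 14939 genes. By unadjusted sign 39 members were lower, with a median log2 fold change of -0.29 against -0.03 over all genes. That median was -0.19 without WT replicate 2, -0.18 without WT replicate 2 and AAV replicate 4, -0.16 with the length correction and -0.14 with total scaling. Every library labelled AAV lay under every library labelled WT in 4 members and above in 1, and among all genes in 4.97% and 6.69%. Without WT replicate 2 and AAV replicate 4, 0 members were called in either direction, beside 0.0134% of all genes lower and 0.0268% higher. DESeq2 on the recovered reads called 2 members lower and 1 higher, beside 2.19% and 4.18% of all genes.

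**Figure D1:**
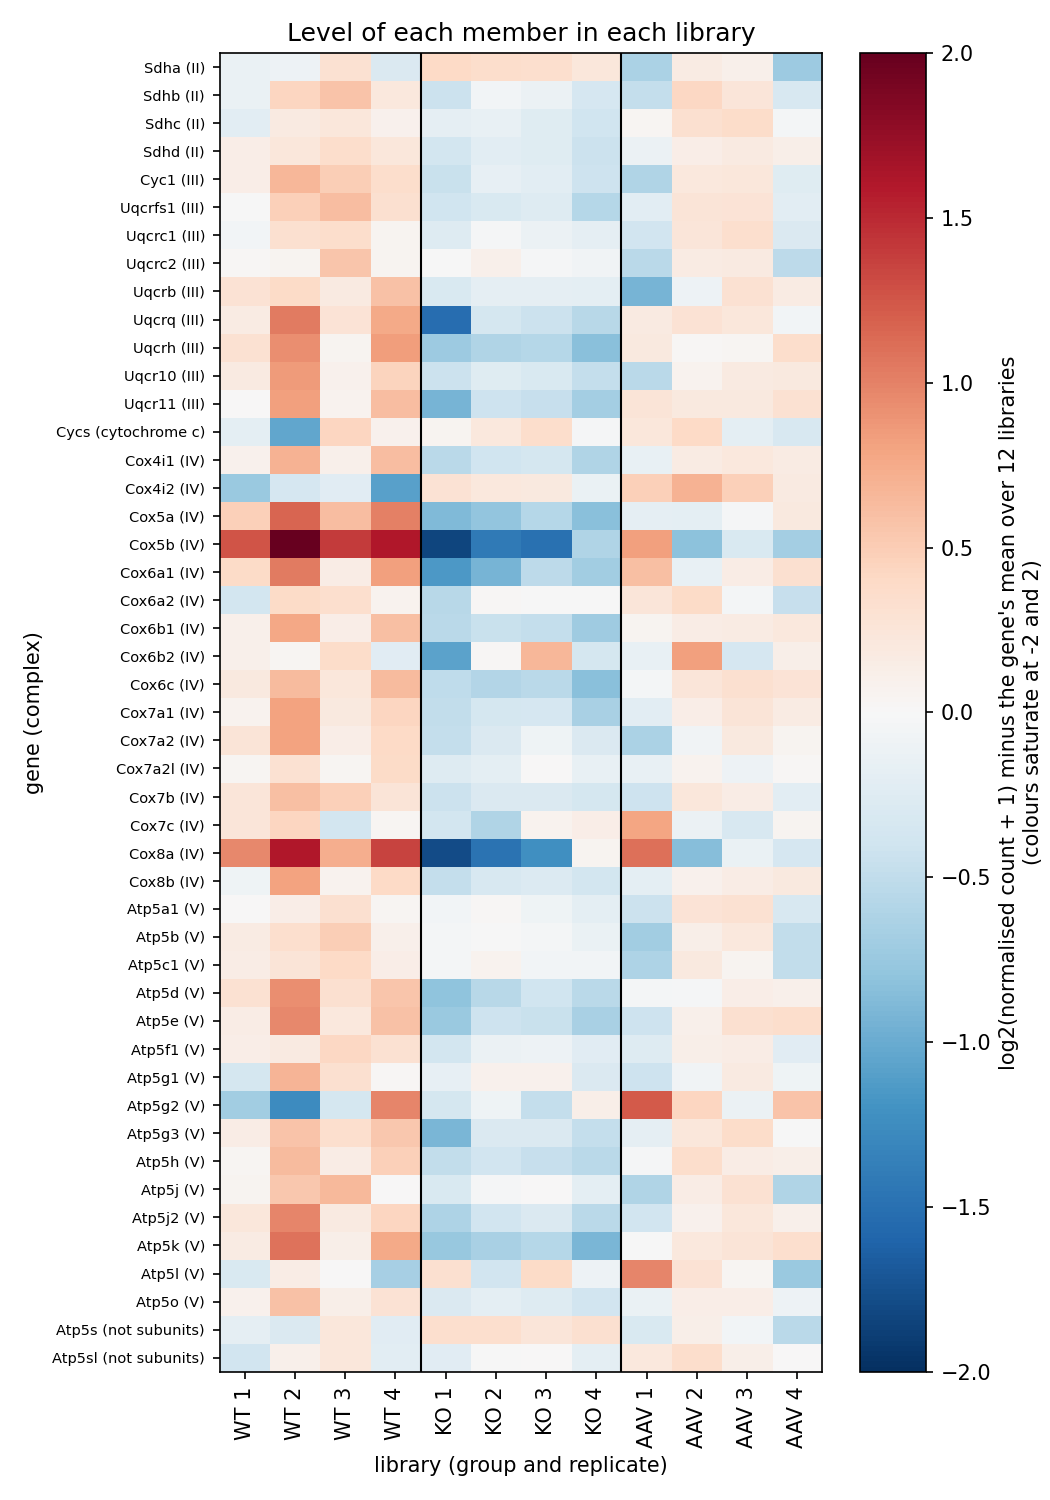
Level of each of the 47 members in each of the 12 libraries, as log2(normalised count + 1) minus the gene's mean over all libraries, with red above and blue under that mean. The columns labelled KO are blue for most genes, and the median deviation of a library lies between -0.43 and -0.25 there, between 0.09 and 0.56 in the columns labelled WT, and between -0.15 and 0.18 in those labelled AAV.

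**Figure D2:**
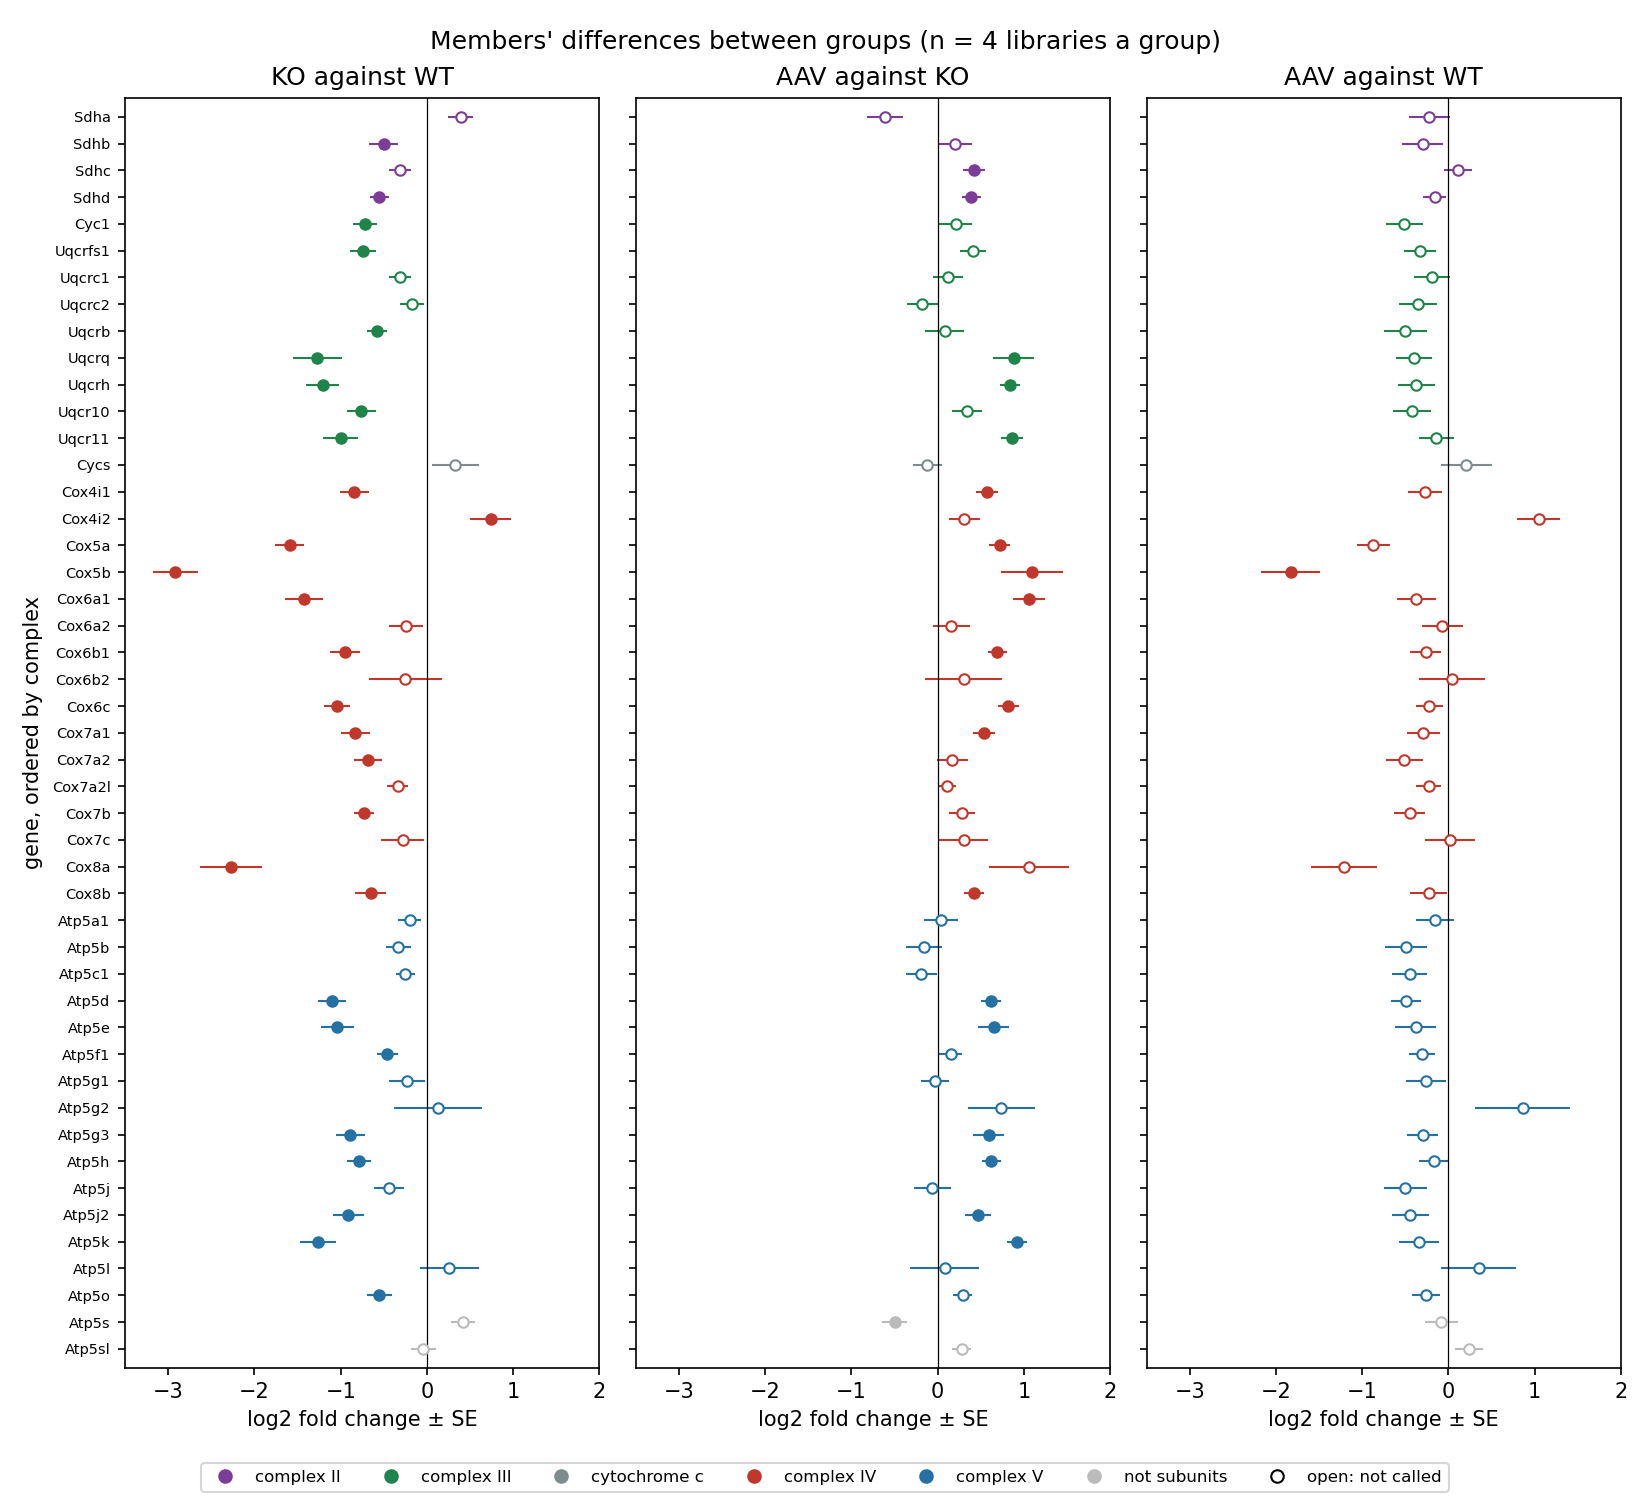
Log2 fold change with its standard error for each member in the 3 comparisons, with 4 libraries a group and filled points for an adjusted p under 0.05. Complex IV spans the widest range in KO against WT, from -2.92 for Cox5b to 0.74 for Cox4i2, whereas Sdha lies on the other side of 0 from most members in both comparisons that involve KO.

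Complex II has no mitochondrially encoded subunit. The iron-sulfur subunit Sdhb (log2 fold change -0.50, adjusted p = 0.0470) and the membrane anchor Sdhd (-0.55, adjusted p = 0.00732) were lower in the libraries labelled KO, and the other anchor, Sdhc, was at -0.31 with an adjusted p of 0.0992. Sdhb lost its call without WT replicate 2 or 4 or any 1 of the libraries labelled KO and with the GC correction, and both Sdhb and Sdhd lost it with the length correction. The flavoprotein subunit Sdha, which oxidises succinate, did not follow. Sdha was counted at 15502, 15736, 20833 and 13850 in the libraries labelled WT, at 22270, 21703, 21460 and 19901 in those labelled KO, and at 10876, 18928, 18185 and 10208 in those labelled AAV. Only WT replicate 3 reached the range of the libraries labelled KO, and the libraries labelled AAV all lay under them. The log2 differences of Sdha were 0.39 ± 0.14 (SE, adjusted p = 0.0675) for KO against WT and -0.61 ± 0.21 (adjusted p = 0.0551) for AAV against KO, so that neither passed the test. Without WT replicate 3 the first was 0.51 with an adjusted p of 0.00337, without AAV replicate 2 the second was -0.75 with an adjusted p of 0.0292, and without AAV replicate 3 it was -0.73 with an adjusted p of 0.0224. Without any 1 of the other libraries neither was called, and the smallest differences were 0.31 (adjusted p = 0.160) without WT replicate 4 and -0.46 (adjusted p = 0.108) without AAV replicate 4. Sdhc and Sdhd were higher in the libraries labelled AAV than in those labelled KO (0.42 and 0.39, adjusted p = 0.0382 and 0.0281). Both calls were lost without any 1 library labelled KO, without AAV replicate 2 and with the length correction, and that of Sdhc also without AAV replicate 1 or 3 and under edgeR.

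In complex III, 7 of 9 members were lower in the libraries labelled KO than in those labelled WT, and 0 were higher, beside 15.3% and 12.3% of all genes. The median was -0.74. The members that were not called were the core proteins Uqcrc1 (-0.31, adjusted p = 0.102) and Uqcrc2 (-0.17, adjusted p = 0.382), the large matrix-facing subunits. The redox subunits Cyc1, which carries the cytochrome that reduces cytochrome c, and Uqcrfs1, the Rieske iron-sulfur protein, fell by 0.72 and 0.74 (adjusted p = 0.00698 and 0.00841), a call that Cyc1 lost with the GC correction and Uqcrfs1 with the length correction. Small accessory subunits fell further, Uqcrq by 1.27 and the hinge protein Uqcrh by 1.21, whereas Uqcr11, Uqcrb and Uqcr10 were at -1.0, -0.58 and -0.76, the last pair not called with the length correction. Uqcrh was counted at 14906, 22945, 12587 and 21542 in the libraries labelled WT, at 7333, 7964, 8173 and 6761 in those labelled KO, and at 13868, 12331, 12461 and 15387 in those labelled AAV. For Uqcr11 the counts were 6910, 12114, 7220 and 10523, then 3610, 5144, 4977 and 4300, then 8207, 7863, 7873 and 8435. For both genes the libraries labelled KO lay apart from the rest, whereas the ranges of AAV and WT overlapped. Uqcrq, Uqcrh and Uqcr11 were the members of complex III that were higher in the libraries labelled AAV than in those labelled KO, by 0.88 (adjusted p = 0.0248), 0.84 (adjusted p = 0.00296) and 0.86 (adjusted p = 0.00350). The call of Uqcrq was lost without KO replicate 4 or AAV replicate 1. Against WT, the 9 members of complex III had log2 differences between -0.51 and -0.14 in the libraries labelled AAV, none called. Cycs, somatic cytochrome c, was at 0.33 (adjusted p = 0.381) in KO against WT.

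Complex IV held the members that moved most. Of its 16 members, 11 were lower and 1 was higher in the libraries labelled KO than in those labelled WT, with a median of -0.78. All genes were lower in 15.3% and higher in 12.3% of cases there. Of the 11, Cox7a1, Cox7a2, Cox7b and Cox8b lost the call with the length correction. In AAV against KO 8 were higher and 0 lower, beside 12.8% and 13.4% of all genes, with a median of 0.48. Cox5b, a subunit that binds zinc on the matrix side, had rank 38 of 14859 genes by p in KO against WT. It lies on chromosome 1 (chr1:36691449-36693681 in GRCm38, plus strand). It was counted, normalised, at 5014, 8704, 5513 and 6344 in the libraries labelled WT, at 586, 782, 742 and 1379 in those labelled KO, and at 3702, 1177, 1684 and 1306 in those labelled AAV. The libraries labelled WT lay above all the others, and AAV replicate 1 stood above the other libraries of its group. The log2 fold change was -2.92 ± 0.26 (SE, adjusted p = 0.000207) for KO against WT, or 0.133 of the WT level, and -1.83 ± 0.34 (adjusted p = 0.0437) for AAV against WT. For AAV against KO it was 1.09 ± 0.36 with an adjusted p of 0.050, just under the threshold, and the call was lost with a pseudocount of 0.1, no filter, a filter on the mean, TMM scaling, the length or GC correction, or the replicate block. Without AAV replicate 1 that difference was 0.73 (adjusted p = 0.0955), and it was lost too without KO replicate 1 (0.92, adjusted p = 0.130), KO replicate 2 (1.06, adjusted p = 0.107), KO replicate 3 (1.03, adjusted p = 0.102) or AAV replicate 3 (1.11, adjusted p = 0.0598). The difference between AAV and WT kept its call in the fits without WT replicate 3 and without AAV replicate 1 and lost it without any of the other 6 libraries (adjusted p up to 0.139), and with both libraries of unlike Gaa left out it was -1.53 (adjusted p = 0.190). The coding sequence of Cox5b is 99.2% identical to that of Gm11273, which has no row in the tables.

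Cox5a, which pairs with Cox4i1 in the complex, was counted at 15152, 24394, 16631 and 21752 in the libraries labelled WT, at 5868, 6249, 7267 and 6073 in those labelled KO, and at 9583, 9464, 10700 and 12441 in those labelled AAV. The 3 groups did not overlap. The log2 fold changes were -1.59 ± 0.17 (adjusted p = 0.000489) for KO against WT and 0.72 ± 0.12 (adjusted p = 0.00578) for AAV against KO. For AAV against WT the difference was -0.87 ± 0.19 with an adjusted p of 0.0586, which did not pass. It passed without WT replicate 3 (-0.93, adjusted p = 0.0440), with DESeq2 (-0.88, adjusted p = 0.000962) and with all 12 libraries fitted together (-0.87, adjusted p = 0.0102), and in no other fit. Cox6c, a small subunit with 1 membrane span, was counted at 10266, 13781, 10408 and 13881 in WT and at 6256, 5923, 6143 and 5010 in KO. In the libraries labelled AAV it was at 8655, 10507, 11199 and 10806, above every library labelled KO and overlapping those labelled WT. It fell by 1.04 in KO against WT (adjusted p = 0.00180) and was 0.82 higher in AAV against KO (adjusted p = 0.00370). Cox6b1, on the outer face, was counted at 15225, 24425, 15621 and 21706 in WT, at 9847, 10424, 10267 and 8692 in KO, and at 14770, 15811, 15900 and 16488 in AAV, with the libraries labelled KO again under the rest. Its log2 differences were -0.95 (adjusted p = 0.00517) for KO against WT and 0.69 (adjusted p = 0.00440) for AAV against KO. Of the other members, Cox7b was at -0.73 (adjusted p = 0.00355) in KO against WT, not called with the length correction, and Cox6b2, an isoform known from testis, and Cox7c were at -0.25 and -0.28, not called.

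**Figure D3:**
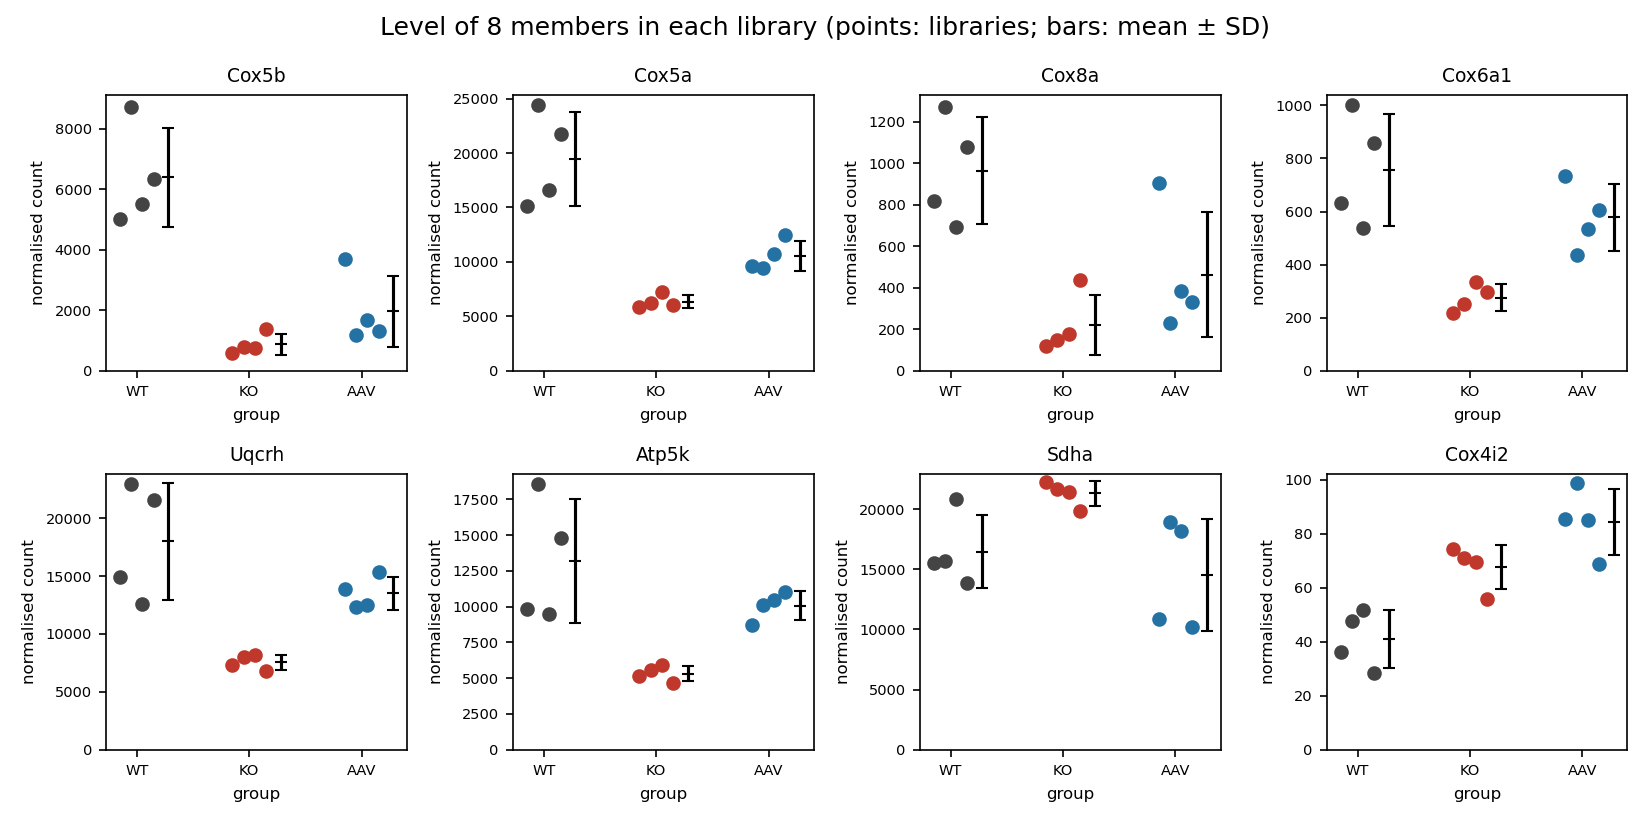
Normalised count of 8 members in each library, with the mean and SD of each group of 4. Cox5b, Cox5a, Cox8a, Cox6a1, Uqcrh and Atp5k have their lowest group mean in the libraries labelled KO, Sdha has its highest mean there, and Cox4i2 is lowest in those labelled WT, at 28.3 to 51.9.

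Subunit 4 exists as the ubiquitous Cox4i1 and as Cox4i2, the isoform known from lung and hypoxic tissue, and in KO against WT these had opposite signs. Cox4i1 was counted at 28705, 43692, 28950 and 41545 in the libraries labelled WT, at 18572, 20585, 21210 and 17904 in those labelled KO, and at 24455, 30454, 31382 and 30256 in those labelled AAV. It fell by 0.84 in KO against WT (adjusted p = 0.00785) and was 0.57 higher in AAV against KO (adjusted p = 0.0141), the latter lost with the GC correction (0.32, adjusted p = 0.133). Cox4i2 was counted at 36.2, 47.8, 51.9 and 28.3 in WT, at 74.4, 71.0, 69.6 and 55.7 in KO, and at 85.4, 98.7, 85.0 and 68.8 in AAV. The libraries labelled WT were the lowest, and those labelled KO and AAV overlapped. The rise of Cox4i2 in KO against WT was 0.74 ± 0.24 (adjusted p = 0.0443). It kept its call without WT replicate 3 and lost it without any 1 of the other 7 libraries, with adjusted p up to 0.115, and under edgeR (adjusted p = 0.0527), whereas with the length correction it was 1.18 (adjusted p = 0.0115). For AAV against WT it was 1.05 ± 0.25 (adjusted p = 0.0773), and 1.17 (adjusted p = 0.0483) without WT replicate 3. Per kilobase of exon, Cox4i2 was at 52.1, 85.9 and 107 normalised counts in the libraries labelled WT, KO and AAV, against 23047, 12624 and 18798 for Cox4i1. Beside Cox4i2, the 5 endothelial genes Pecam1, Cdh5, Kdr, Tek and Tie1 summed to 1709 to 4863 in WT and 4137 to 5490 in KO, with 3 of the 5 higher in KO, beside 12.3% of all genes; their part in the value was not tested.

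For the subunits with a muscle and a ubiquitous isoform, the muscle form was the more abundant in every library. In KO against WT the ubiquitous Cox6a1 and Cox8a had log2 fold changes of -1.43 and -2.27, against -0.24 and -0.65 for muscle Cox6a2 and Cox8b. Per kilobase, muscle Cox6a2 made up 97.5% ± 0.673 (SD, n = 4) of the 6A transcripts in the libraries labelled WT, 98.9% ± 0.141 in KO and 97.9% ± 0.739 in AAV. Muscle Cox8b made up 96.7% ± 0.387, 98.8% ± 0.843 and 98% ± 1.58. Muscle Cox7a1 made up 73.5% ± 1.49, 71.3% ± 2.27 and 76.3% ± 1.97, the least of the 3 pairs.

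Ubiquitous Cox6a1 was counted at 633, 1000, 537 and 860 in the libraries labelled WT, at 217, 253, 336 and 298 in those labelled KO, and at 735, 436, 535 and 606 in those labelled AAV. The libraries labelled KO lay under all the others. Muscle Cox6a2 was counted at 20508, 34309, 33082 and 27495 in WT, at 17956, 26876, 26289 and 26191 in KO, and at 31090, 34246, 25637 and 19114 in AAV, and its 3 ranges overlapped. Cox6a1 fell by 1.43 in KO against WT (adjusted p = 0.00262) and was 1.06 higher in AAV against KO (adjusted p = 0.00638). Cox6a2 was at -0.24 (adjusted p = 0.390) and 0.16 (adjusted p = 0.575). The log2 ratio of Cox6a2 over Cox6a1 was 5.26 ± 0.45 (SD, n = 4) in WT and 6.46 ± 0.19 in KO, a difference of 1.19 with every library labelled KO above every library labelled WT (two-sided exact permutation p = 0.0286, which is the lowest value 4 against 4 can give; 0.0643 after adjustment over 9 ratio tests). In AAV it was 5.56 ± 0.55, which differed from KO by -0.89 (exact permutation p = 0.0571, adjusted 0.103) and from WT by 0.30 (exact permutation p = 0.457). The difference of AAV and WT was 0.06 without AAV replicate 2, 0.53 without WT replicate 3 and 0.49 without AAV replicate 4.

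Ubiquitous Cox8a (chr19:7215153-7217616, minus strand) was counted at 821, 1270, 693 and 1078 in the libraries labelled WT, at 121, 150, 178 and 438 in those labelled KO, and at 907, 233, 384 and 333 in those labelled AAV. KO replicate 4 and AAV replicate 1 stood above the rest of their groups, and the ranges of KO and AAV overlapped. Muscle Cox8b was counted at 12189, 22600, 13618 and 17105 in WT, at 9306, 10442, 10703 and 10086 in KO, and at 11374, 13825, 14372 and 14904 in AAV. Cox8a was at -2.27 ± 0.36 (adjusted p = 0.00330) and Cox8b at -0.65 ± 0.18 (adjusted p = 0.0274) in KO against WT. In AAV against KO, Cox8a was at 1.06 ± 0.46 (adjusted p = 0.112), or 1.45 (adjusted p = 0.0463) without KO replicate 4 and 0.67 (adjusted p = 0.270) without AAV replicate 1, and Cox8b at 0.42 ± 0.12 (adjusted p = 0.0293). The call of Cox8b in KO against WT was lost without WT replicate 4 or any 1 library labelled KO, with adjusted p up to 0.0770, and that in AAV against KO without any 1 library labelled KO or AAV replicate 2, up to 0.0859. With the length correction Cox8b was at -0.17 (adjusted p = 0.343) in KO against WT and 0.10 (adjusted p = 0.524) in AAV against KO, and with the GC correction the latter was 0.24 (adjusted p = 0.159). The log2 ratio of Cox8b over Cox8a was 4.08 ± 0.18 in WT, 5.70 ± 0.80 in KO and 5.06 ± 0.98 in AAV. KO and WT differed by 1.62 with no overlap (exact permutation p = 0.0286, adjusted 0.0643), and AAV differed from KO by -0.64 (exact permutation p = 0.371) and from WT by 0.98 (exact permutation p = 0.143). The difference of AAV and KO was -0.17 without AAV replicate 1 and -1.03 without KO replicate 4.

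The 7A pair behaved differently. Muscle Cox7a1 was counted at 8900, 14849, 9662 and 11348 in the libraries labelled WT, at 5992, 6625, 6708 and 5379 in those labelled KO, and at 7284, 9243, 10142 and 9488 in those labelled AAV. Ubiquitous Cox7a2 was counted at 6322, 9241, 5817 and 6973, then at 3813, 4346, 4970 and 4355, then at 3400, 5056, 6062 and 5510. Both were lower in KO than in WT, Cox7a1 by a log2 change of -0.83 (adjusted p = 0.00773) and Cox7a2 by -0.68 (adjusted p = 0.0130). With the length correction neither was called (-0.36, adjusted p = 0.0582, for Cox7a1 and -0.27, adjusted p = 0.0967, for Cox7a2). Their log2 ratio was 0.65 ± 0.11 in WT and 0.50 ± 0.16 in KO (difference -0.15, exact permutation p = 0.171, and -0.09 without KO replicate 4). In AAV against KO, Cox7a1 was 0.54 higher (adjusted p = 0.0175) and Cox7a2 was at 0.17 (adjusted p = 0.484). The call of Cox7a1 was lost without KO replicate 1 (adjusted p = 0.0513) or 4 (0.0562) and with the GC correction (0.38, adjusted p = 0.0631) or the length correction (0.28, adjusted p = 0.104). The ratio in AAV was 0.87 ± 0.16, above every library labelled KO (difference 0.37) and every library labelled WT (difference 0.22), with an exact permutation p of 0.0286 and an adjusted p of 0.0643 in each case. None of the 9 ratio differences passed after adjustment, and 4 reached the smallest p that this design allows. Cox7a2l, a relative of the 7A subunits, was counted at 1600, 1919, 1604 and 2024 in WT, at 1308, 1359, 1563 and 1401 in KO, and at 1411, 1633, 1448 and 1587 in AAV, and was at -0.34 in KO against WT (adjusted p = 0.0659).

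**Figure D4:**
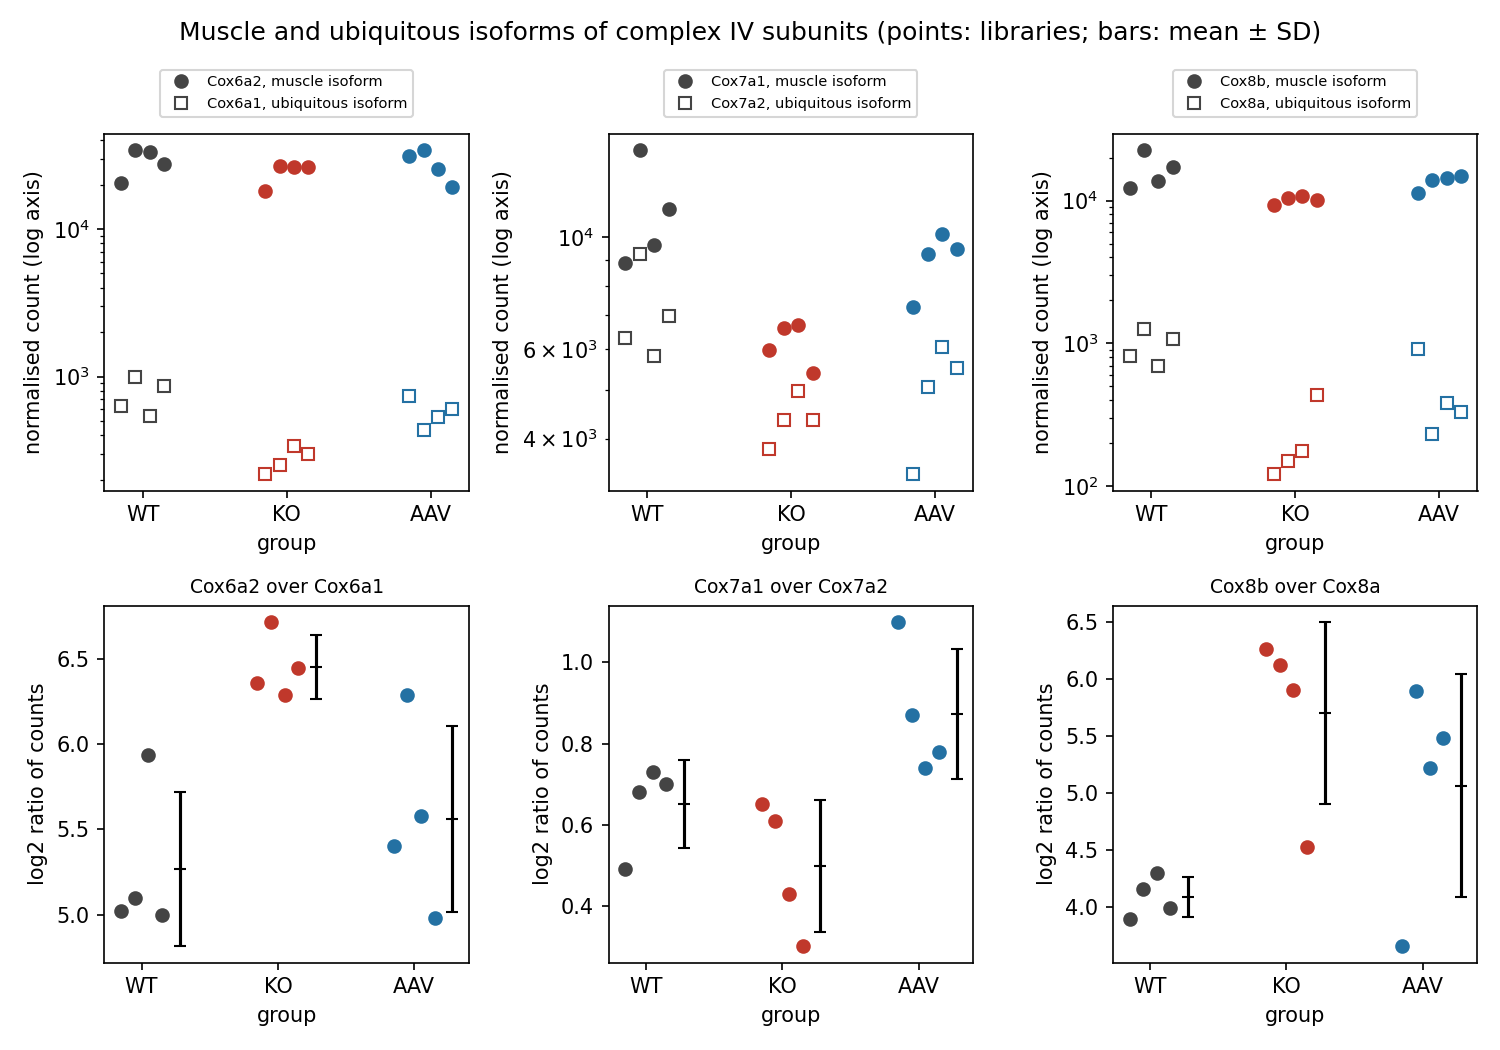
Muscle and ubiquitous isoforms of subunits 6A, 7A and 8 of complex IV in each library, as normalised counts on a log axis (top) and as the log2 ratio of muscle over ubiquitous isoform with the mean and SD of 4 libraries (bottom). The ratios of Cox6a2 over Cox6a1 and of Cox8b over Cox8a in the libraries labelled KO lie above those labelled WT, with group means of 6.46 against 5.26 and 5.70 against 4.08, whereas the Cox7a1 over Cox7a2 ratio is highest in those labelled AAV, at a mean of 0.87.

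In complex V, the ATP synthase, 8 of 15 members were lower and 0 were higher in the libraries labelled KO than in those labelled WT. Their median was -0.46, and 15.3% of all genes were lower and 12.3% higher. The subunits of the catalytic head and its shaft that are largest, F1 alpha (Atp5a1, -0.20, adjusted p = 0.273), F1 beta (Atp5b, -0.33, adjusted p = 0.0952) and F1 gamma (Atp5c1, -0.25, adjusted p = 0.116), were not called. The small subunits at the foot of the shaft, F1 delta (Atp5d) and F1 epsilon (Atp5e), fell by 1.10 (adjusted p = 0.00232) and 1.04 (adjusted p = 0.00520). Atp5d was counted at 14537, 22416, 14556 and 17224 in WT, at 6682, 7996, 8897 and 8063 in KO, and at 11409, 11507, 12829 and 12586 in AAV, so that the 3 groups did not overlap. In AAV against WT it was at -0.49 with an adjusted p of 0.183. Of the membrane subunits that join ATP synthases into dimers, subunit e (Atp5k) fell by 1.26 (adjusted p = 0.00405). It was counted at 9841, 18599, 9488 and 14820 in WT, at 5172, 5571, 5896 and 4646 in KO, and at 8703, 10113, 10455 and 11034 in AAV. The libraries labelled KO lay under all the others, and in AAV against KO Atp5k was 0.92 ± 0.12 higher, with the lowest adjusted p among the members (0.00187). The other members of complex V that were higher in AAV than in KO were Atp5d (0.62), Atp5e (0.65), Atp5g3 (0.59), the stalk subunit Atp5h (0.62) and the membrane subunit Atp5j2 (0.47). With Atp5k these were 6 of 15, beside 12.8% of all genes. The call of Atp5j2 was lost without any 1 library labelled KO, without AAV replicate 2, 3 or 4 and with the length correction, that of Atp5e without KO replicate 1 or 4, and that of Atp5d with the GC correction (0.33, adjusted p = 0.0659). Atp5a1, Atp5b and Atp5c1 were at 0.04, -0.16 and -0.19 there. The stalk subunits Atp5f1 and Atp5o were lower in KO than in WT (-0.46 and -0.55, adjusted p = 0.0188 and 0.0169), Atp5f1 not without KO replicate 1 or 4 and Atp5o not without KO replicate 4, and Atp5j was at -0.44 (adjusted p = 0.0749). Of the members that are no subunits, Atp5s was counted at 322, 299, 427 and 310 in WT, at 460, 458, 431 and 455 in KO, and at 294, 396, 351 and 250 in AAV, highest in KO. It was at 0.42 (adjusted p = 0.0506) in KO against WT and lower in AAV than in KO (-0.50, adjusted p = 0.0346), while Atp5sl was at -0.04 and 0.28. The call of Atp5s was lost without any 1 library labelled KO, without AAV replicate 1 or 4, and with total scaling or the GC correction.

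The ring that turns as protons pass is built of subunit c, whose mature protein is the same from 3 genes. Atp5g3 was counted at 20948, 28090, 24036 and 27590 in the libraries labelled WT, at 10109, 15618, 15501 and 13599 in those labelled KO, and at 16740, 22154, 24407 and 18839 in those labelled AAV. It was lower by 0.89 in KO than in WT (adjusted p = 0.00647) and 0.59 higher in AAV than in KO (adjusted p = 0.0348), the latter lost without KO replicate 1, 2 or 4 or without AAV replicate 2 or 3 (adjusted p up to 0.0910) and with the length correction (0.50, adjusted p = 0.0536). Atp5g1 was counted at 300, 614, 479 and 388 in WT, at 343, 409, 408 and 313 in KO, and at 287, 367, 436 and 361 in AAV, with overlapping groups (-0.23, adjusted p = 0.428, in KO against WT). Per kilobase in the libraries labelled WT, Atp5g3 was at 11539 normalised counts and Atp5g1 at 90.7. Atp5g2 was counted at 3.62, 2.13, 4.87 and 13.7 in WT, at 4.83, 5.99, 4.35 and 7.07 in KO, and at 16.5, 9.06, 5.91 and 10.1 in AAV.

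Reads that map to more than 1 place were not counted, and 21 of the 47 members had a near-identical copy of their coding sequence elsewhere in the annotation (at least 90% identity over at least 50% of it). Subunit g (Atp5l) had 14 such copies and was counted at 6.42 to 23.4, Atp5g2 had 4, and Cox7c had 5 and was counted at 38.5 to 102. Levels of such genes are uncertain, and 5 members had a mean under 100 over the 12 libraries. Of the 26 members without a near-identical copy, 14 were lower and 1 was higher in KO than in WT, with a median of -0.53, beside 15.3% and 12.3% of all genes. Of the same 26, 10 were higher and 1 was lower in AAV against KO, with a median of 0.30, beside 12.8% and 13.4%. For the 21 with a copy the medians were -0.73 and 0.34, with 14 lower and 9 higher. This split was chosen after the values were seen.

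Members with short coding sequences had larger log2 fold changes than members with long ones. Over the 47 members, the Spearman correlation of coding length with the log2 fold change was 0.48 in KO against WT and -0.52 in AAV against KO, given as a description since members share libraries and lengths go with exon length. Calls by length stand beside 15.3% of all genes lower in KO than in WT and 12.8% higher in AAV than in KO. Of 23 members with a coding sequence of at most 400 bases, 17 were lower in KO, with a median of -0.83, and 12 were higher in AAV than in KO, with a median of 0.47. Of 11 members with at least 750 bases, among them Sdha, Uqcrc1, Atp5a1 and Atp5b, 4 were lower in KO, with a median of -0.31, and 0 were higher in AAV than in KO, with a median of 0.12. Over all genes tested the correlation of the fold change with exon length was 0.26 and -0.16. When each library's values were corrected for a trend on exon length, the members that were lower in KO numbered 18, all of them among the 28, with a median of -0.36 and beside 14.7% of all genes, and those higher in AAV than in KO numbered 12, with a median of 0.18 and beside 12.6% of all genes. Cox5b (-2.62), Cox8a (-1.80), Cox5a (-1.38) and Cox6c kept their calls in KO against WT after this correction, whereas Sdhb, Sdhd, Uqcrfs1, Uqcrb, Uqcr10, Cox7a1, Cox7a2, Cox7b, Cox8b and Atp5o did not. Among members that kept the call, Cox6b1 moved to -0.49, Uqcr11 and Cox4i1 each to -0.54 and Atp5k to -0.79, and Cox7a2l, not called before, moved to -0.02. The cutoffs on length were chosen after the values were seen.

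**Figure D5:**
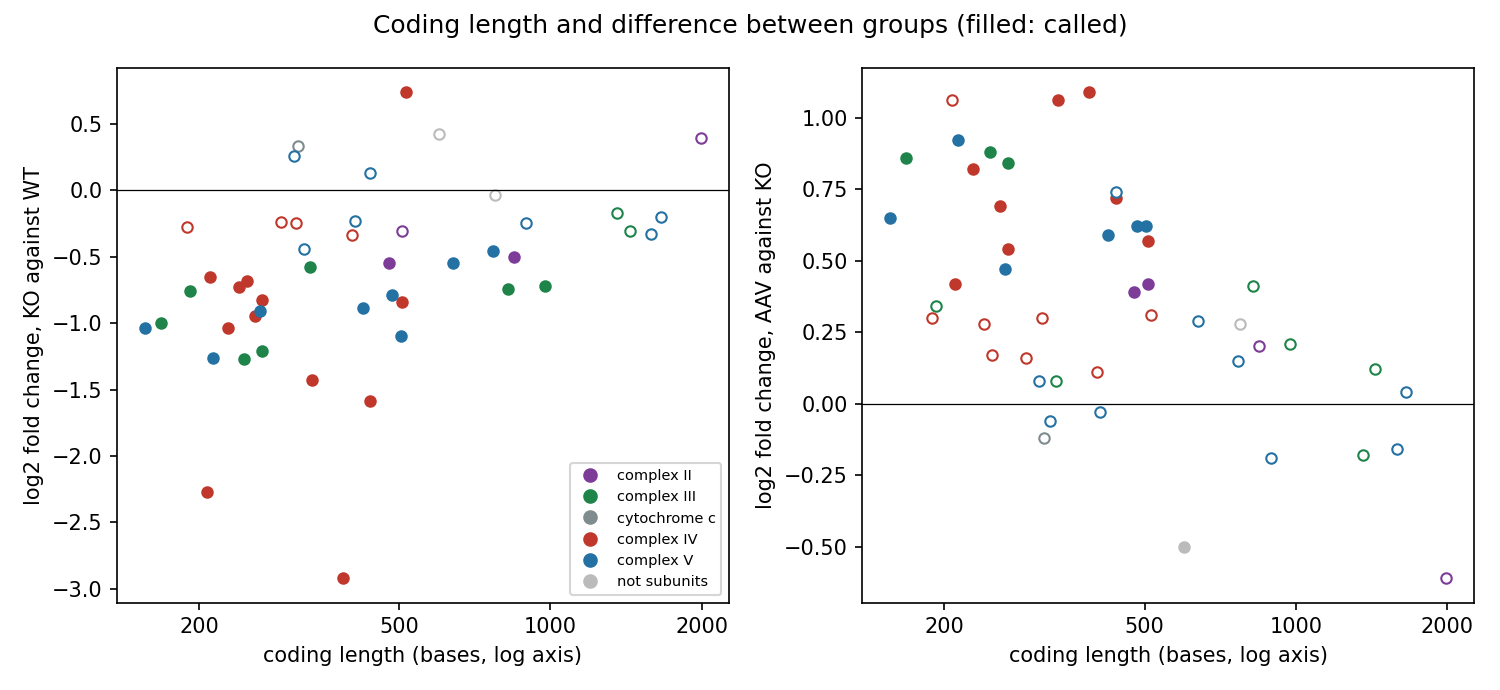
Coding length of each of the 47 members, on a log axis, against its log2 fold change in KO against WT (left) and in AAV against KO (right), coloured by complex and filled where called. The 11 members of 750 bases or more have a median of -0.31 on the left and 0.12 on the right, against -0.83 and 0.47 for the 23 members of 400 bases or fewer.

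The members that were higher in AAV than in KO in every fit that was tried, 21 in number, were Uqcrh, Uqcr11, Cox5a, Cox6a1, Cox6c, Atp5h and Atp5k. The bases before their start sites are shown because these genes moved together and because nuclear respiratory genes are known for sites of the factors NRF1 and of the ETS family. RefSeq promoters on GRCm38.p6 were matched by symbol for 34 of the 47 members, in 37 windows. The members without an entry were Sdhc, Cyc1, Uqcrc2, Uqcrb, Uqcrq, Cox4i1, Cox4i2, Cox6a2, Cox6c, Atp5a1, Atp5f1, Atp5s and Atp5sl. The 250 bases before each start were searched on both strands for CCGGAAG (ETS), GCGCA, any base and GCGC in a row (NRF1), AAGGTCA (the estrogen-related receptors) and CAGCTG (an E-box, known from muscle genes). Each sequence is written 5′ to 3′ on the strand of its gene, with matches in capitals. The windows are chr4:116075071-116075320 (minus strand) for Uqcrh, chr10:80406822-80407071 (minus) for Uqcr11, chr5:115348959-115349208 (minus) for Cox6a1, chr11:115419920-115420169 (minus) for Atp5h and chr5:108434400-108434649 (minus) for Atp5k.
Uqcrh: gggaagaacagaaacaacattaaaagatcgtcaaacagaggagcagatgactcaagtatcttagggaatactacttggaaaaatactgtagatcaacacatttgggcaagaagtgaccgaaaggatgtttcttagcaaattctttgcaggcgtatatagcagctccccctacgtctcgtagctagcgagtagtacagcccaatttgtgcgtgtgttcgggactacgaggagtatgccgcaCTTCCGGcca
Uqcr11: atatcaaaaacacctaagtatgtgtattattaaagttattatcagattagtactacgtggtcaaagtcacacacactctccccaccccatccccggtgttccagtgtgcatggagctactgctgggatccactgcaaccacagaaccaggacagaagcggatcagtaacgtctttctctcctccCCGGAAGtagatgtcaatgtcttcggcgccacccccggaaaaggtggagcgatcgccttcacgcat
Cox6a1: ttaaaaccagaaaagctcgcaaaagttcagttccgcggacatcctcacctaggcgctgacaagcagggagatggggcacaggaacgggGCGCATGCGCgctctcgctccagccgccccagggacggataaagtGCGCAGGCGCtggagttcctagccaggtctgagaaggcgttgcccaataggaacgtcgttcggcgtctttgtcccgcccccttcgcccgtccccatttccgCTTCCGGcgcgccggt
Atp5h: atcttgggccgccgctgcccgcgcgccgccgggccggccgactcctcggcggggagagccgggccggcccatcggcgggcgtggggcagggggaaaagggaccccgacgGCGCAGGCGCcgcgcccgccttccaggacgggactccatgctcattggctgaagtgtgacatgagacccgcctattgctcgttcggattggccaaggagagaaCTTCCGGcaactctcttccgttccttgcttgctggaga
Atp5k: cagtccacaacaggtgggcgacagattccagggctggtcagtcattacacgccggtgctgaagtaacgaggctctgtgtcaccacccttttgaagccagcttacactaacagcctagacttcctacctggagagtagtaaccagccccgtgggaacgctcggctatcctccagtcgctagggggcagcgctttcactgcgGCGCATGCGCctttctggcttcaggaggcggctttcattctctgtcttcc

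The match to the ETS letters begins 10 bases before the start in Uqcrh, 66 in Uqcr11, 16 in Cox6a1 and 38 in Atp5h. The NRF1 letters begin 50 bases before the start in Atp5k, 141 in Atp5h, and 162 and 117 in Cox6a1. Cox5a held none of the 4 motifs in its window. The ETS letters were in 24.3% of the 37 member windows and in 6.91% of all 32851 windows of this length, and the NRF1 letters in 18.9% and 3.74%. Both of these runs hold CG pairs, of which the member windows had a median of 14.0 and all windows 6.00. The part of CG content in these shares was not tested. The letters for estrogen-related receptors were in 5.41% and 4.08%, and the E-box in 5.41% and 13.0%. A match is a run of letters and not a bound site.

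The pair Cox8b and Cox8a shows the contrast of a muscle and a ubiquitous isoform. Their windows are chr7:140900447-140900696 (minus strand) for Cox8b and chr19:7217617-7217866 (minus) for Cox8a.
Cox8b: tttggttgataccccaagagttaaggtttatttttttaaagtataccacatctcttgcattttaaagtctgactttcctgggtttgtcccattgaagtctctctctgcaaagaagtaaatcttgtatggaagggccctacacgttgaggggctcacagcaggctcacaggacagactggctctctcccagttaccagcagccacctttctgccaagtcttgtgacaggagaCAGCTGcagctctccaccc
Cox8a: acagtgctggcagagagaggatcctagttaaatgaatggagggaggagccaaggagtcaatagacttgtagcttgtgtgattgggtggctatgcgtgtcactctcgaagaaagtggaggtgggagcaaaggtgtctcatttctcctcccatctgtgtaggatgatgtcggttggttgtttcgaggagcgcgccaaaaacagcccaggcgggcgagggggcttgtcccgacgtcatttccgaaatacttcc

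The window of Cox8b held 1 CG pair and 47.2% GC, and an E-box that begins 19 bases before the start. That of Cox8a held 11 CG pairs and 52.8% GC and none of the 4 motifs, beside a median of 14.0 CG pairs in the member windows and 6.00 in all windows.

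Genes that build the complexes were read from a list of 34 assembly factors in the tables, whose counts stand beside 15.3% of all genes lower and 12.3% higher in KO against WT, and 13.4% lower and 12.8% higher in AAV against KO. Of these, 12 were lower and 1, Lyrm7, was higher in the libraries labelled KO than in those labelled WT, with a median of -0.40. Cox14, which couples the making of the mitochondrial subunit 1 to assembly, was at -1.62 (adjusted p = 0.00280), and Cox17, a copper chaperone of complex IV, at -0.90 (adjusted p = 0.0111). Lyrm7, which helps insert the Rieske protein, was at 0.83 (adjusted p = 0.0105). In AAV against KO, 8 were higher and 4 lower, with a median of 0.05, and Cox17 was at 0.94 (adjusted p = 0.00616). In AAV against WT, 0 were called in either direction. The ATP synthase inhibitor Atpif1, which the name rule does not take, was counted at 1555, 2365, 717 and 1826 in WT, at 392, 445, 431 and 470 in KO, and at 1309, 678, 719 and 1974 in AAV. It was at -1.77 (adjusted p = 0.00429) in KO against WT and 1.29 (adjusted p = 0.0154) in AAV against KO. The small membrane subunits Usmg5 (-1.15, adjusted p = 0.0184) and 2010107E04Rik (-0.82, adjusted p = 0.00590) were lower in KO as well.

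The mitochondrially encoded subunits were not lower in KO where they were read. Of 6 listed, 2 were analysed here. The cytochrome b gene mt-Cytb and subunit 1 of complex IV, mt-Co1, were each at a log2 fold change of 0.07 in KO against WT, and in AAV against KO mt-Co1 was lower (-1.14, adjusted p = 0.0281) and mt-Cytb was at -0.71 (adjusted p = 0.0985). Together they were counted at 573781 to 1527274 in WT, 860467 to 956307 in KO and 282487 to 695932 in AAV.

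Of 10 regulators of mitochondrial genes, 1 was lower in KO than in WT, the coactivator Ppargc1b (-0.78, adjusted p = 0.0208), where 15.3% of all genes were lower. In AAV against KO 1 was higher and 1 lower, where 12.8% and 13.4% of all genes were. There, Ppargc1b was higher (0.99, adjusted p = 0.00500) and Gabpa, which binds the ETS letters, was lower (-0.74, adjusted p = 0.00764). Ppargc1a was at 0.02 (adjusted p = 0.969) and 0.67 (adjusted p = 0.0662). The libraries also differed in fibre and cell type genes. Of 10 genes of slow and oxidative fibres, 9 were lower in KO than in WT, with a median of -2.89, and 8 were higher in AAV than in KO, with a median of 4.89. Their sum ranged from 39653 to 152518 in WT, from 19787 to 63676 in KO and from 57829 to 234641 in AAV. Slow myosin, Myh7, was counted at 11.1 to 14.5 in KO and at 41.3 to 4306 in AAV. Of 10 genes of fast fibres, 1 was lower and 1 higher in KO. Of 5 macrophage genes, 3 were lower in KO than in WT, and their sum was 920 to 3199 in WT, 469 to 873 in KO and 450 to 2583 in AAV, with none of the 5 at 0 in a group. The part of fibre type and of macrophages in the members' values was not tested.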

How the data were processed

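Quadriceps RNA from 12 mice, 4 a group, was sequenced. According to the study's methods and the submitters' processing notes, the authors trimmed reads with Trim Galore 0.4.1, checked them with FastQC 0.11.2, aligned them with STAR to GRCm38, counted reads with a single location with HTSeq 0.6.1, dropped genes under 10 reads in all libraries and scaled counts with DESeq2 1.16.1. The deposited values are a signal: counts divided by size factors, in 2 tables (KO with WT, AAV with KO) whose KO columns were identical (largest difference 0), so that AAV and WT share a scale. The authors' own fold changes and p-values in these tables were not used. All values came out as whole reads (tolerance 0.1), which gave the library totals.

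Genes that reached 10 in 1 or more of the libraries compared were tested with limma 3.58.1 (R 4.3.3, trend) on log2(value + 1), so that fold changes of low genes are understated, with Benjamini-Hochberg adjustment over all genes and an adjusted p of 0.05. Each comparison used only its 2 groups. Nothing in the labels pairs animals. Isoform ratios were tested with exact two-sided permutation tests over 70 arrangements, adjusted over 9 tests. In data simulated for KO against WT (14859 genes, 200 changed), the fit recovered 0% of genes changed by 0.5, 55% by 1 and 95.5% by 2 on the log2 scale. Of the genes called at a change of 1, 6.78% were not among those changed. In the real data 4097 genes were called, so that the cutoff on p lay elsewhere and these rates do not carry over. Sdhd, for example, was called at -0.55. Alternatives were another pseudocount (0.1), other filters and scalings, corrections for length and GC content, a replicate block, edgeR 4.0.16 and DESeq2 1.42.0 on the recovered whole reads, and leaving out each library. Gene positions and lengths came from GENCODE on GRCm38, and copies from BLAST 2.17.0. Genes described in full were, by rule, those with an isoform or a relative, and those with the lowest adjusted p or the largest change in each comparison; other members were named after their values were seen. The members and lists were chosen with earlier results of these data known. Python 3.11.15 drew the plots.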

Additional observations from a re-analysis of the deposited data

Results flagged for a closer look

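In 6 of 150 groups of 4 libraries, 1 library stood far from the other three, by a gap over the range above Dixon's 95% critical value; chance gives this in about 1 in 20 groups. Uqcrc2 in the libraries labelled WT had a value of 0.932, with replicate 3 high at 13869. Cox4i1 in those labelled AAV had 0.837, with replicate 1 low at 24455. In the libraries labelled KO, Cox6a2 had 0.923 (replicate 1 low at 17956), Atp5c1 had 0.844 (replicate 2 high at 17751) and Atp5s had 0.844 (replicate 3 low at 431). The log2 ratio of Cox6a2 over Cox6a1 in the libraries labelled WT had 0.892, with replicate 3 high at 5.94.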

How the results depend on the processing

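The count of members lower in KO than in WT was 18 with the length correction, beside 14.7% of all genes. With 1 library left out it was 24 to 29, beside 9.11% to 24.1% of all genes, with the top of each range without WT replicate 3. The median was -0.36 with the length correction (-0.34 in the members without a near-identical copy) and -0.64 to -0.55 with 1 library left out. The count of higher members was 2 with a mean of at least 10, TMM scaling, the length correction or DESeq2, beside 13.0%, 12.3%, 10.7% and 13.5% of all genes. It was 3 with total scaling (12.6%), 0 with edgeR (10.6%), and 0 to 3 with 1 library left out (6.17% to 24.1%). In AAV against KO, higher members numbered 12 with the length correction and 11 to 19 with 1 library left out, lower members 0 with total scaling or the GC correction, 2 with DESeq2 and 0 to 2 with 1 library left out, and the median was 0.48 with total scaling and 0.13 with the length correction in members without a copy. Total scaling moved the median of all genes to 0.204 in AAV against KO and 0.119 in AAV against WT. In AAV against WT, lower members numbered 0 with the length correction (0.268% of all genes), edgeR (0.234%) or both libraries of unlike Gaa left out (0.0134%). They numbered 2 with DESeq2 (2.19%) or all 12 libraries fitted together (1.91%), and 0 to 2 with 1 library left out (0.0268% to 0.823%). Higher members numbered 1 with total scaling (1.90%), DESeq2 (4.18%) or all 12 libraries (3.97%), and 0 to 1 with 1 library left out (0.0937% to 2.10%). The cause was not tested.

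The labels do not pair the libraries by replicate number. The correlations of same-numbered deviations were 0.0253, -0.00761, -0.111 and -0.115 in KO against WT, and -0.0645, 0.0618, -0.176 and -0.15 in AAV against KO. In AAV against WT they were -0.0732, -0.355, 0.554 and 0.478, so that replicates 3 and 4 deviated alike there, for a reason that was not tested. With the replicate block, KO against WT had 28 lower and 0 higher members, AAV against KO 14 higher and 0 lower, and AAV against WT 0 lower, beside 12% and 8.60%, 7.31% and 7.32%, and 0.208% of all genes. With the block and the length correction, the counts were 16 lower (median -0.36), 8 higher and 0 lower, and 0 lower. The shares of all genes were then 11.5%, 6.83% and 5.72%, and 0.268%.

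Some differences that were not called changed sign. Uqcr11 in AAV against WT was at 0.01 (total scaling), 0.08 (length, with and without the block) and 0.00 (without WT replicate 2), over a range of -0.27 to 0.00 with 1 library left out. Cox6a2 was at 0.22 in KO against WT and -0.06 in AAV against KO with the length correction, with and without the block. In AAV against WT, Cox6a2 was at 0.08 (total scaling), 0.15 (length, with and without the block), 0.02, 0.00 and 0.09 (without WT replicate 2, WT replicate 3 and AAV replicate 4) (-0.23 to 0.09 with any 1 library left out) and 0.18 (without both libraries of unlike Gaa). In AAV against KO with the length correction, Cox7a2 was at -0.01, Cox7a2l at -0.02 and Atp5g1 at 0.02. Atp5g1 was at 0.14 with total scaling, 0.07 with the GC correction, and 0.03, 0.02 and 0.08 without KO replicate 2, KO replicate 3 and AAV replicate 1. Atp5g2 in KO against WT was at -0.18 without WT replicate 2 (up to 0.56 with another library left out), -0.12 with edgeR and -0.13 with DESeq2.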
